A study of Rattus norvegicus with 20 samples.

Results

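The microRNA (miRNA) genes followed here across rat tissues and serum are known for their place in white blood cells: rno-mir-142, rno-mir-150, rno-mir-223, rno-mir-146a, rno-mir-146b and rno-mir-155. They were taken by name and are 6 of the 444 precursors, and 11 of the 577 mature arms, counted in each library. The animals were male Long Evans rats, 35 days old, untreated and never given alcohol. Small RNA was sequenced from 3 brain hemispheres and 3 serum samples, each run as a library of its own. A further 14 libraries each held the pooled RNA of 1 tissue from 3 rats: subcutaneous abdominal fat, heart, kidney, large intestine, liver, lung, hindlimb muscle, pancreas, skin, small intestine, spleen, stomach, testes and thymus. All groups shared this age, sex and lack of treatment, and no pool had a replicate, so its error is counting error only.

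An miRNA is cut from a hairpin precursor into a 5p and a 3p arm, and one arm is usually loaded into an Argonaute protein, where its seed (bases 2 to 8) pairs with target messages. miR-142 is made throughout the blood cell lineages, miR-150 mainly in mature lymphocytes, and miR-223 in neutrophils, monocytes and their precursors. miR-146a is induced by NF-kB and represses adaptors upstream of it, miR-146b is its relative from another chromosome, and miR-155 is induced when lymphocytes and macrophages are activated.

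The mature sequences from RefSeq (assembly GRCr8) are shown for the arms that carried the counts, with the seed in capitals, because the levels of the mir-146 pair are read against their near identity. Of the 6 genes, 5 had sequences in the table used.
miR-142-5p: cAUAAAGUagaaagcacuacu
miR-142-3p: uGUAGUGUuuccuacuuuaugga
miR-146a-5p: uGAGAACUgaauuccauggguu
miR-146b-5p: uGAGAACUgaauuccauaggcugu
miR-155-5p: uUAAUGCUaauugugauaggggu
miR-223-3p: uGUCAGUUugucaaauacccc
miR-146a-5p and miR-146b-5p shared the seed GAGAACU and were identical over their first 17 bases. They differed by G18A and U21C (miR-146a-5p base, position from its 5′ end, miR-146b-5p base), and miR-146b-5p was 2 bases longer. No other pair of the arms read from the table shared a seed.

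The hairpins lie apart in the genome. On GRCr8 mir-142 is at chr10:73055104-73055190 on the plus strand, overlapping the coding gene Tspoap1. The mir-146a hairpin is at chr10:28349996-28350090 on the minus strand, overlapping a long noncoding RNA gene. The mir-146b hairpin is at chr1:255144860-255144947 (plus), overlapping the coding gene C1h10orf95. The mir-155 hairpin is at chr11:37261114-37261178 (plus), overlapping the long noncoding RNA gene Mir155hg. For mir-223 it is at chrX:65151383-65151492 (plus), also overlapping a long noncoding RNA gene. Overlap was read from coordinates only, and the strand of the overlapping genes was not compared. The mir-142 hairpin is shown because both of its arms were counted in depth. The 5p arm, then the 3p arm, are in capitals.
mir-142 hairpin: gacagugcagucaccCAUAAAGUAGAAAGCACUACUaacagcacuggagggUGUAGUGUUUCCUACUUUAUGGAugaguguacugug

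Precursor reads per library numbered 388275 to 1204552 in brain, 7556 to 10862 in serum and 162080 to 3685761 in the pools. Levels are given in RPM, reads scaled to the total precursor reads of the library, and intervals are 95% Wilson intervals that cover counting error only. A count of 3 reads, used here as the floor, was worth 2.49 to 7.73 RPM in brain, 0.814 to 18.5 RPM in the pools and 276 to 397 RPM in serum. Labels of 9 tissues were checked with miRNAs typical of them. No such marker was used for spleen, thymus, fat, lung, kidney or stomach, so those labels were not checked. The markers were highest in the labelled tissue for brain, muscle, heart, small intestine, skin and testes. Large intestine was 2nd for mir-194-1 and mir-194-2, behind small intestine. For mir-192 it was 4th, behind small intestine and other tissues. The library labelled pancreas had mir-216a and mir-217 at 0 reads and the liver miRNA mir-122 at 14862 RPM, beside 14726 RPM in liver, so tests against the pools are also given without it.

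mir-142 was highest in the lymphoid organs and had the widest range over tissues of the 6 genes. Its level was 65299 RPM in thymus and 59167 RPM in spleen, where it was the 5th and the 4th most abundant of all precursors and took 6.53% and 5.92% of the precursor reads. Fat followed at 11488 RPM, the library labelled pancreas at 5815 RPM and liver at 4314 RPM. These tissues stood well above the others. Lung had 1629, small intestine 1325, heart 936, skin 772, kidney 567, testes 500, large intestine 491, muscle 398 and stomach 261 RPM. The 3 hemispheres had 171, 186 and 56.7 RPM (138 ± 70.7, SD, n = 3), the lowest of the 15 tissues, and thymus stood 69.8 times above the median tissue. Kidney, testes and large intestine were the neighbours whose intervals overlapped, and thymus stayed first under each of the other scalings and lists tried. In whole organs, fewer cells of a type and less RNA per cell cannot be told apart.

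mir-150, the lymphocyte miRNA, was highest in spleen and fat and, unlike mir-142, lower in thymus than in spleen. Spleen had 2498 RPM (interval 2295 to 2718) and fat 2072 (1948 to 2203). The ratio of spleen to fat was 1.21 (exact 95% interval 1.08 to 1.34) with library totals, but fat came first with TMM scaling (1568 against 1456 RPM) and in the mature list (2382 against 2119 RPM). Lung followed with 498 RPM, muscle with 325, heart with 302 and thymus with 281. The median tissue had 204 RPM, and with TMM scaling thymus was 3rd at 494 RPM. Thymus thus lay far below spleen for mir-150 and above it for mir-142. The ratio of spleen to thymus was 8.89 (interval 7.51 to 10.6) for mir-150 and 0.906 (0.888 to 0.924) for mir-142 with library totals, and 2.95 and 0.300 with TMM scaling. Brain had 230, 209 and 180 RPM and liver 204 RPM, whose intervals overlapped. The remaining 7 pools, from 79.3 RPM in the library labelled pancreas to 27.8 RPM in kidney, followed each other with overlapping intervals.

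mir-223, the myeloid miRNA, stood out in a single tissue. Spleen had 365 RPM (78 reads, interval 293 to 456), and the next tissue, small intestine, had 51.2 RPM (24 reads, interval 34.4 to 76.2). Spleen stayed first under each scaling and list tried. Lung had 47.2 RPM from 113 reads, fat 36.8, liver 36.6, thymus 33.4 and the library labelled pancreas 29.7 RPM. From small intestine down to testes (6.17 RPM, 1 read) each tissue overlapped the next. Tissues further apart in the order did differ, such as lung (interval 39.3 to 56.8 RPM) and large intestine (13.1 to 21.6 RPM). Brain was lowest, with 3, 1 and 0 reads in the 3 hemispheres, or 2.49, 1.75 and 0 RPM, where the interval of the 0 reaches 9.89 RPM.

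mir-155 was found mainly in spleen, thymus and fat. Its level was 230 RPM in spleen (49 reads), 216 RPM in thymus and 133 RPM in fat (65 reads). Spleen and thymus overlapped with library totals, at a ratio of 1.06 (interval 0.753 to 1.48), whereas with TMM scaling thymus led (379 against 134 RPM, a ratio of 0.353). Fat lay below both with either scaling. Skin followed at 37.2 RPM with 28 reads and muscle at 14.3 RPM with 18 reads. Every other tissue had 10.1 RPM or less, with overlapping neighbours. The hemispheres had 8.30, 3.50 and 10.3 RPM, and testes had no read, with an interval that reaches 23.7 RPM.

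mir-146a was present everywhere and varied least. Spleen had 9044 RPM and fat 7026 RPM with library totals, whereas with TMM scaling the library labelled pancreas (6964 RPM) and thymus (6903 RPM) came before fat (5317 RPM), and spleen was 4th at 5273 RPM. Heart had 4080 RPM and thymus 3922 RPM, which overlapped. The lowest levels were 845 RPM in large intestine, 720 RPM in stomach, and 609, 648 and 819 RPM in the hemispheres. From the highest tissue to the median tissue the difference was 3.84-fold, the smallest of the 6 genes.

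mir-146b had another order altogether. Lung had 10360 RPM and skin 9726 RPM, followed by the hemispheres at 4845, 5956 and 9614 RPM. Fat had 5145, testes 5022, spleen 3875 and thymus 1960 RPM. The lowest levels were in the library labelled pancreas (411 RPM), kidney (345 RPM) and liver (222.6 RPM). It was the only one of the 6 with neither spleen nor thymus as its highest tissue with library totals. Lung or skin came first under each scaling and list tried.

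**Figure D1:**
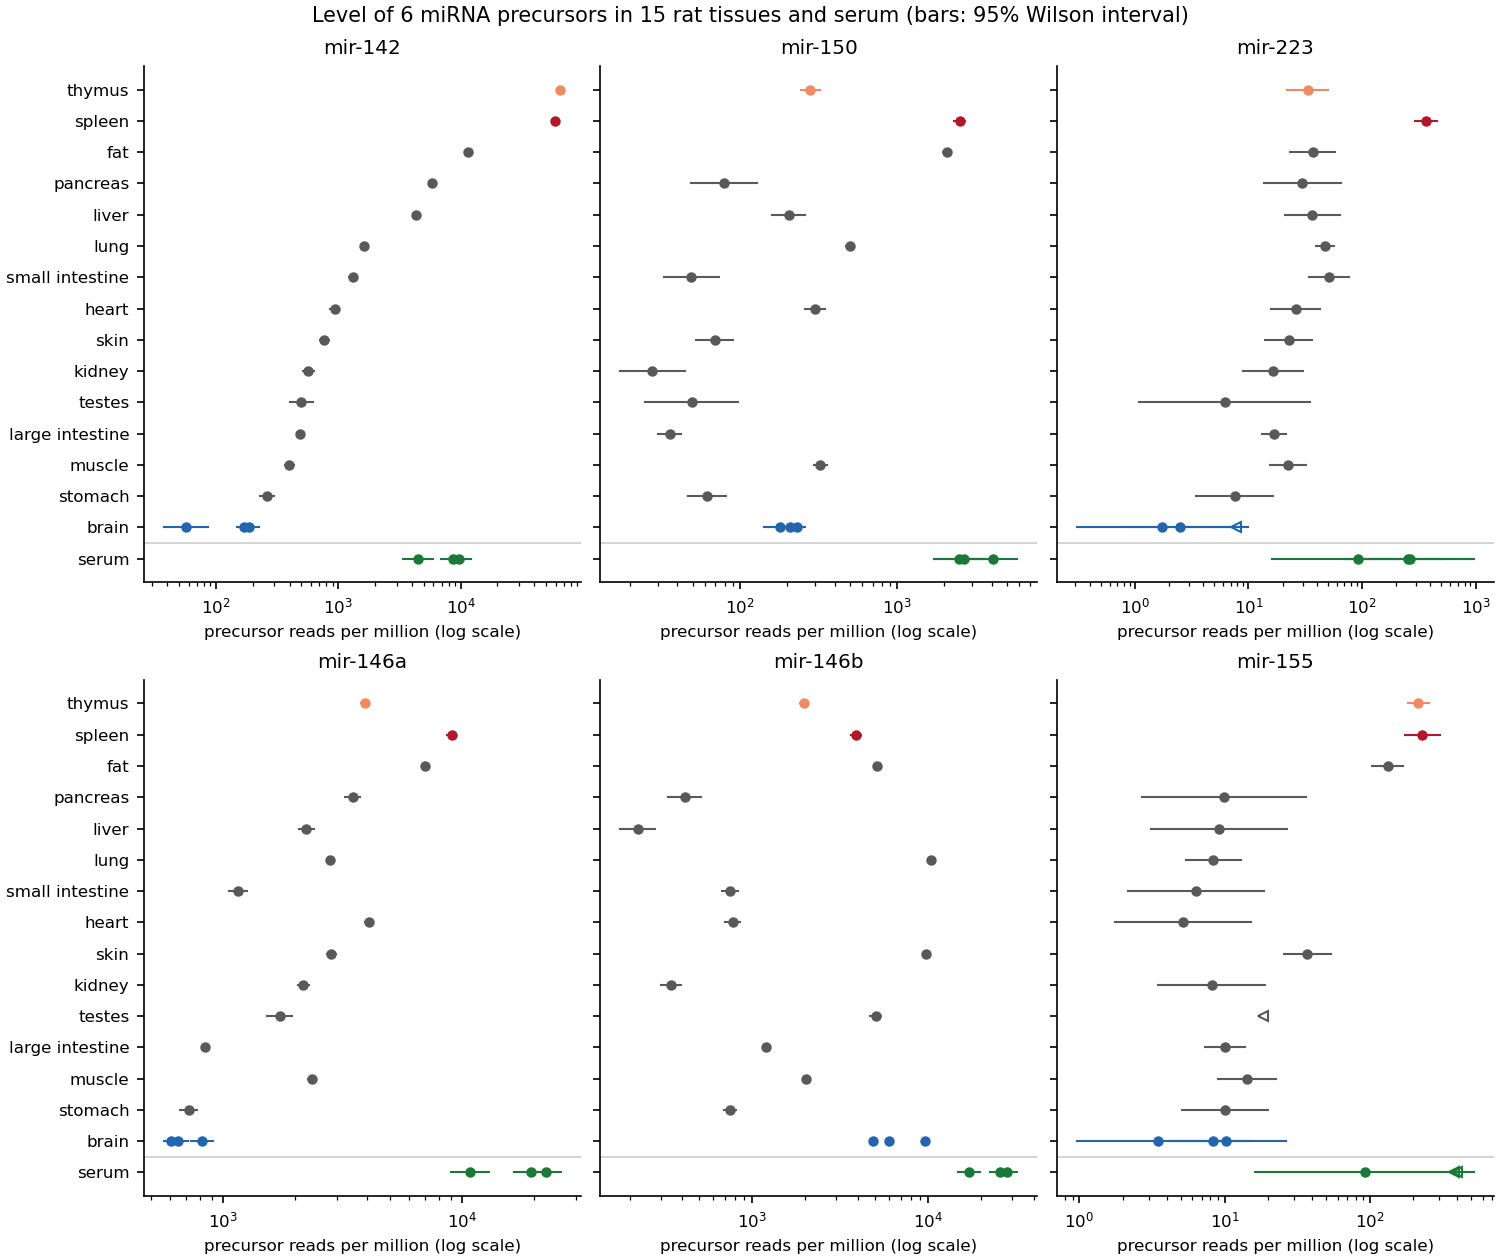
Level of each precursor (RPM, log axis) in 15 tissues and serum, 1 point per library with its 95% Wilson interval; open triangles mark 0 reads and stand at the level of 3 reads. Spleen (red) and thymus (orange) are highest for mir-142 at 59167 and 65299 RPM, spleen alone stands out for mir-223 at 365 RPM, and for mir-146b lung and skin lie above spleen.

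Across the 15 tissues the levels of mir-142 ran with those of several of the other genes, and mir-146b ran least with them. Pearson's r of log2(RPM + 1) was 0.784 between mir-142 and mir-146a, 0.767 between mir-142 and mir-223, and 0.757 between mir-142 and mir-155. The same measure was -0.0055 between mir-142 and mir-146b, and 0.161 between mir-146a and mir-146b, but 0.410 between mir-150 and mir-146b. The lowest value among the 5 genes other than mir-146b was 0.539, between mir-150 and mir-223. These are descriptions over 15 points that share library totals. Among 289 other precursors, those most like mir-142 were mir-92a-2 (r = 0.849), mir-19b-1 (0.821) and mir-363 (0.775). Like mir-142, mir-92a-2 was highest in thymus (2610 RPM) and then spleen (1462 RPM). Both mir-92a-2 and mir-19b-1 have a second genomic copy with the same mature sequence, so their counts may be shared between copies.

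For mir-150 the closest were mir-191a (0.708), mir-140 (0.642) and mir-423 (0.638). For mir-223 they were the red blood cell miRNAs mir-451 (0.722) and mir-144 (0.691), then mir-28 (0.625). mir-451 was also highest in spleen, at 6026 RPM. For mir-146a they were mir-3596d (0.796), let-7f-1 (0.795) and mir-144 (0.717), and for mir-146b mir-6318 (0.853), let-7c-2 (0.816) and mir-324 (0.798). For mir-155 they were mir-130b (0.642), mir-25 (0.588) and mir-532 (0.581). None of these 3 remained with 0.1 RPM added in place of 1 RPM. With TMM scaling 1 of 3 remained for mir-150, where mir-144 and mir-451 came first, and 1 of 3 for mir-146b. With 10 RPM added, 1 of 3 remained for mir-146b and for mir-155. Levels of mir-6318 and mir-324 were low, at 17.9 and 45.8 RPM in brain, their highest tissue.

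The red blood cell miRNAs moved with spleen as well. Of that list of 3, mir-451 and mir-144 were counted and mir-486 was not listed. Their summed level was 12816 RPM in spleen, 343 in lung, 328 in heart, 292 in the library labelled pancreas and 2.44 RPM in large intestine, with a median of 31.8 over the 15 tissues. In thymus, where mir-142 was as high as in spleen, the sum was 36.4 RPM. In fat, where mir-142, mir-150, mir-146a and mir-155 were all among the 3 highest tissues, it was 26.6 RPM. Serum had 2779, 2210 and 4288 RPM. The part of red blood cells in the levels of the 6 genes was not tested.

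Ratios between 2 genes of the same library do not depend on how libraries are scaled. The ratio of mir-223 to mir-150 precursor reads, the myeloid over the lymphocyte miRNA, was lowest in fat among the pools at 0.0178 (18 over 1014 reads, exact 95% interval 0.0105 to 0.0282). It was 0.0683 in muscle, 0.0948 in lung, 0.119 in thymus and 0.146 in spleen (interval 0.114 to 0.186). Fat and spleen had similar mir-150 levels but their ratios did not overlap. At the other end were small intestine with 1.04 (24 over 23 reads, interval 0.564 to 1.93), kidney with 0.588 (10 over 17 reads, 0.241 to 1.36) and large intestine with 0.470 (0.342 to 0.640). The library labelled pancreas had 0.375, skin 0.327, and stomach 0.122 from 6 mir-223 reads. In brain the ratio was 0.0108 and 0.0084 in hemispheres 1 and 2, from 3 reads and 1 read of mir-223.

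The balance of the mir-146 pair differed widely between tissues. The ratio of mir-146a to mir-146b precursor reads was 10.01 in liver (interval 7.86 to 12.9), 8.49 in the library labelled pancreas, 6.30 in kidney and 5.29 in heart. It was 2.33 in spleen and 2.00 in thymus. At the other end it was 0.344 in testes, 0.293 in skin and 0.272 in lung, and 0.126, 0.109 and 0.0852 in the hemispheres. Serum lay between, at 0.685, 0.632 and 0.872. With precursors, mir-146a exceeded mir-146b in 9 of 15 tissues.

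With mature 5p arms mir-146a led in 6 of 15 tissues, and a smaller share of the mir-146a than of the mir-146b reads was in the mature list. In fat 3439 precursor reads of mir-146a stood against 2518 of mir-146b, but 1698 mature reads against 2449. In spleen the mature ratio was 1.16 (interval 1.06 to 1.28), and in thymus 1.03 (0.956 to 1.12), so that the arms overlapped in thymus. The order of tissues was similar in both lists, from 4.25 in liver to 0.0417 in hemisphere 3. All values of these 6 genes were whole numbers. That cannot show how reads matching both genes of the pair were assigned, since a read can be given whole to either.

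**Figure D2:**
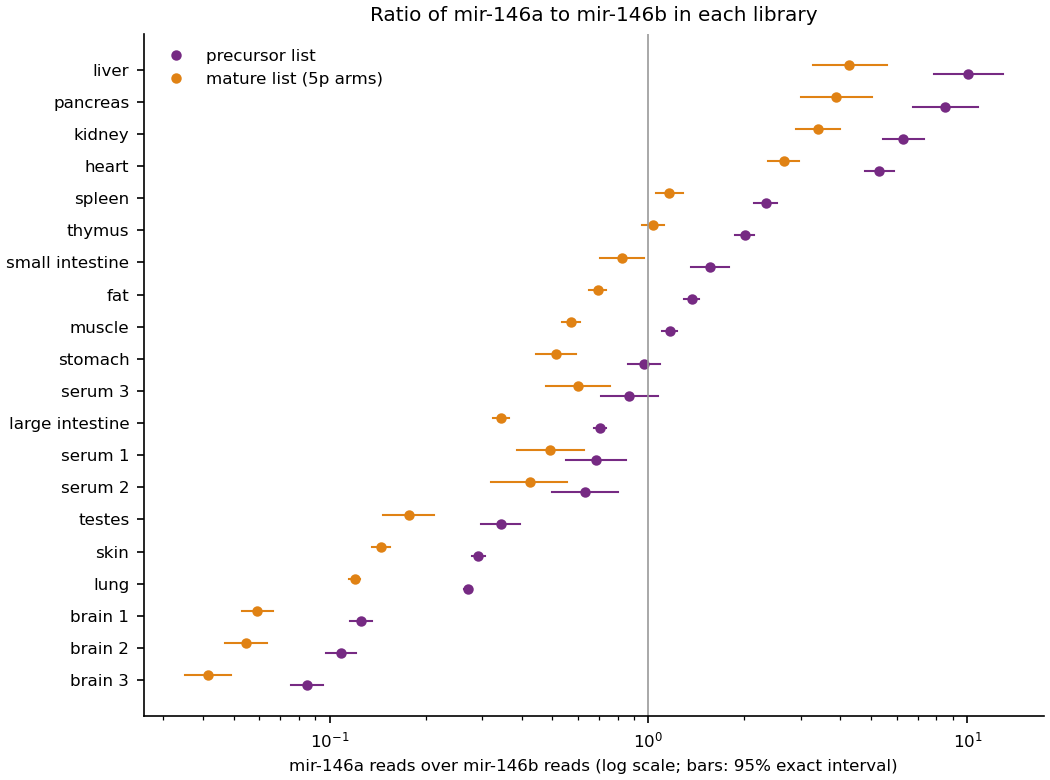
Ratio of mir-146a to mir-146b reads in each of 20 libraries (log axis, bars 95% exact intervals), from the precursor list (purple) and the mature list (orange). The ratio runs from 10.01 in liver to 0.0852 in hemisphere 3 with precursors, and the mature ratio is lower in each library.

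The arms were strongly one-sided. For mir-142 the 5p arm took 95.7% of the mature reads in thymus (23349 reads of the 5p and 1048 of the 3p), 96.1% in spleen (6525 and 266 reads) and 97.0% in fat. Over the pools the lowest share was 91.4% in skin. The 3p arm led for mir-223, with 156 of 164 mature reads over all pools. miR-150-3p, miR-146a-3p and miR-146b-3p had levels of at most 2.64 RPM in any tissue. For mir-155 the 5p arm was the one listed.

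The share of precursor reads that the mature list also counted differed between genes and, for mir-142, between tissues. For mir-146b it was 95.2% to 99.5% in the pools. For mir-146a it was 41.3% to 52.5% in the pools and 46.3% in the summed hemispheres. For mir-142 it was 25.2%, 30.2% and 18.2% in the hemispheres, and in the pools it ran from 28.7% in lung (1119 of 3895 reads) to 60.6% in liver (857 of 1415 reads), with 53.8% in spleen and 56.7% in thymus.

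Serum stood outside these ranges for both genes, in opposite directions. For mir-142 the share was 5.48%, 12.2% and 8.70% in the 3 serum libraries (4 of 73, 6 of 49 and 6 of 69 reads), below every pool and every hemisphere, although the interval of hemisphere 3 (7.31% to 38.5%, from 22 reads) reached the serum values. For mir-146a it was 71.2%, 66.7% and 68.4%, above every other library. The total of the mature list was 64.6% to 68.4% of the precursor total in serum, 84.3% to 85.1% in brain and 60.3% to 87.8% in the pools. A serum level of mir-142 therefore depended on the list: the mean was 7624 ± 2739 RPM as a precursor and 926 ± 156 RPM as miR-142-5p (SD, n = 3).

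**Figure D3:**
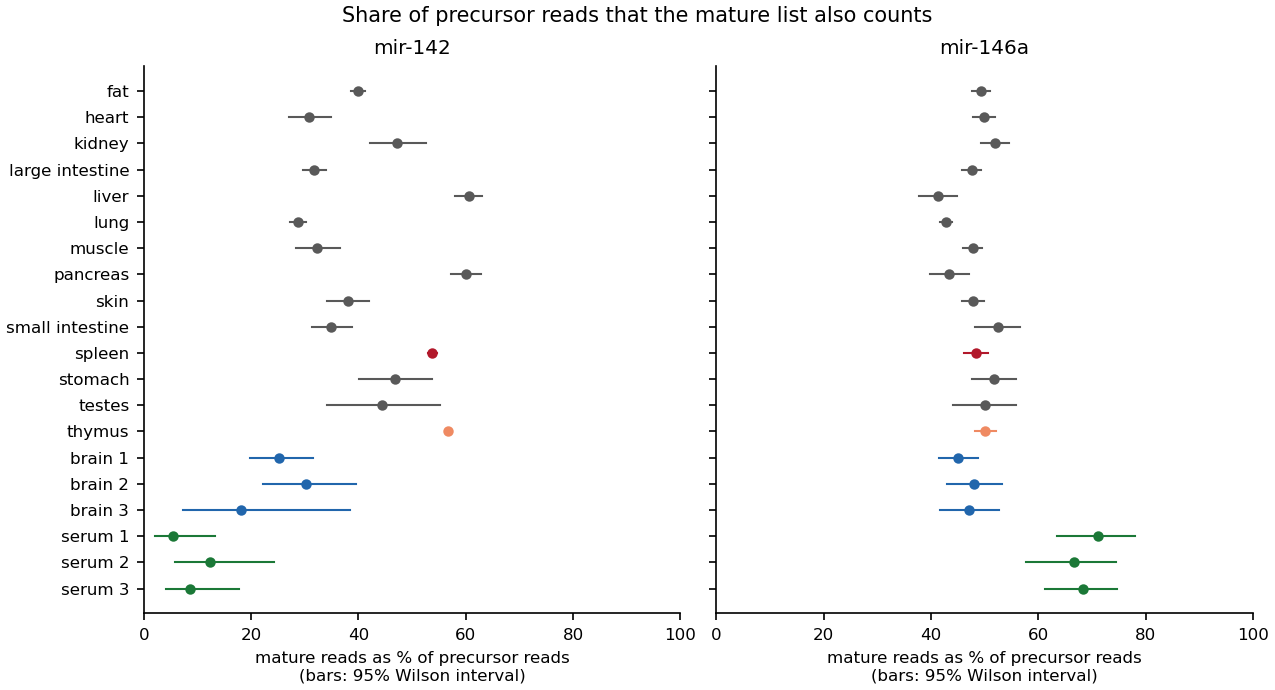
Mature reads as a percentage of precursor reads (x axis, 95% Wilson intervals) for mir-142 and mir-146a in each library. The serum libraries (green) lie at 5.48% to 12.2% for mir-142, below all tissues, and at 66.7% to 71.2% for mir-146a, above all tissues.

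Serum was then set against brain, the tissue with replicates. Per library, mir-142 had 9661, 4511 and 8701 RPM in serum, mir-150 had 4103, 2486 and 2648 RPM, mir-146a had 19322, 10772 and 22320 RPM, and mir-146b had 28190, 17032 and 25599 RPM. Every serum value lay above every hemisphere for these 4 genes. Most of the precursors tested below also had no overlap between brain and serum, in one direction or the other. The separation was therefore not particular to these 4. For mir-146a and mir-146b even the lowest serum library lay above all 15 tissues with library totals. With TMM scaling the serum mean was 1.11 and 1.32 times the highest tissue for these genes, and for mir-150 it was 0.896 times the highest tissue against 1.23 with totals.

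In edgeR's quasi-likelihood test with Benjamini-Hochberg adjustment over 235 precursors, all 4 genes that passed the count filter were lower in brain. Of all precursors tested 44 were lower in brain (18.7%) and 105 higher. mir-142 was 57.6-fold lower in brain (log2 fold change -5.85, SE 0.35, adjusted p = 4.5e-08), and the log2 value ranged from -6.13 to -4.50 over 13 alternatives. mir-146a had -4.70 (SE 0.31, adjusted p = 8.2e-08), and mir-150 had -4.00 (SE 0.25, adjusted p = 6.4e-08). For mir-146b the change was smaller, at -1.83 (SE 0.34, adjusted p = 0.00046). Leaving out a hemisphere moved all 4: mir-142 to -5.01, -5.12 and -4.50, mir-146a to -3.70, -3.78 and -3.87, mir-150 to -3.12, -3.07 and -2.91, and mir-146b to -0.76, -0.90 and -1.22, without hemispheres 1, 2 and 3. The calls held there, and 68 precursors passed the filter with a median near 0. The median over all precursors tested was 2.15. Precursors could pass the filter on the hemispheres alone, and some with 0 RPM in serum did, such as mir-411 and mir-338. These could only come out higher in brain, which affects both this median and the 18.7% above. With at least 10 counts in every library 51 precursors were tested. The median was then 0.69 over all of them and -3.13 over the 4 genes.

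mir-223 and mir-155 did not reach the filter. mir-223 had 2, 1 and 2 reads in the serum libraries and 4 reads in all 3 hemispheres together, a ratio of levels of 103 between summed serum and summed brain (interval 22.1 to 517). mir-155 had 1 read in all of serum and 16 in brain, at a ratio of 5.13 (0.122 to 33.0), so no difference was detectable at this depth. Without the filter, edgeR gave -6.08 for mir-223 (adjusted p = 1.9e-05) and -1.93 for mir-155 (adjusted p = 0.50). The mir-223 result held for the precursor list only, since 0 of its 5 serum reads were in the mature list. For miR-223-3p, with 3 reads in all of brain and 0 in serum, edgeR without the filter gave 2.34 (SE 8.08, adjusted p = 0.88). Its direction could therefore not be read.

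Among mature arms, 3 of the 11 passed the filter and all 3 were lower in brain, against 30 of 212 arms tested (14.2%). Arms too could pass on the hemispheres alone, which affects this share. With at least 10 counts in every library 35 arms were tested, and their median was -0.19, against 3.86 with the main filter. miR-146a-5p had a log2 fold change of -5.03 (SE 0.45, edgeR adjusted p = 1.8e-12) and miR-150-5p of -3.54 (SE 0.34, adjusted p = 1.1e-11). miR-146b-5p had -1.62 (SE 0.42, adjusted p = 0.00084). That call was lost without hemisphere 1 (-0.74, adjusted p = 0.158) and without hemisphere 2 (-0.84, adjusted p = 0.128), where 50 arms passed the filter. miR-142-5p had 4, 6 and 6 reads in serum and entered only without the filter, at -3.10 (edgeR adjusted p = 5.0e-08).

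Brain was also set against the 14 pools. mir-142, mir-223 and mir-146a were lower in brain, 3 of the 6 genes. Of 295 precursors 55 were lower in brain (18.6%) and 71 higher, and with library totals in place of TMM scaling 24 were lower and 123 higher. mir-142 was lower by -6.91 on the log2 scale (SE 2.17, edgeR adjusted p = 0.019), with every hemisphere below every pool. mir-223 had -5.59 (SE 1.24, adjusted p = 0.0017), also below every pool. Other precursors, such as mir-199a, mir-28 and mir-21, were below every pool in every hemisphere too. mir-146a had -3.14 (SE 0.56, adjusted p = 0.00025), although hemisphere 3 lay above stomach.

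The other genes did not pass. mir-155 had -3.43 (SE 1.41, edgeR adjusted p = 0.056), mir-150 had -1.87 (SE 1.18, adjusted p = 0.186) and mir-146b had 0.30 (SE 0.80, adjusted p = 0.757). The hemispheres are 1 tissue entered as 3 libraries, so these p-values can be too small. The mir-142 call was lost without any one hemisphere (edgeR -7.56, -7.54 and -6.95, adjusted p of 0.086, 0.089 and 0.098, without hemispheres 1, 2 and 3). Without the library labelled pancreas the calls held for mir-142 (-7.35, adjusted p = 0.026), mir-223 (-5.85, adjusted p = 0.0036) and mir-146a (-3.21, adjusted p = 0.00070). DESeq2 placed 5 of the 6 genes lower in brain, all but mir-146b, where it called 40.3% of all precursors lower.

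Spleen and thymus, the lymphoid organs, were compared with the other 12 pools. mir-142 was 19.8-fold higher (log2 fold change 4.31, SE 0.90, edgeR adjusted p = 0.021), and both organs lay above all 12 pools. It was the only one of the 6 genes that passed, where 6 of 236 precursors (2.54%) were higher. mir-155 also lay above all 12 pools in both organs, at 3.08 (SE 0.85, adjusted p = 0.056), and passed without fat (3.96, adjusted p = 0.0029) and without testes (2.97, adjusted p = 0.033). Such separation was not particular to these genes: mir-363, mir-92a-2 and mir-16 were among other precursors that had it. mir-223 had 1.75 (SE 0.74, adjusted p = 0.154) and mir-150 had 1.55 (SE 1.04, adjusted p = 0.304). Without spleen these became 0.28 and 0.086, and without thymus 2.62 and 2.36. mir-146a had 0.67 (SE 0.47, adjusted p = 0.311), and mir-146b had -0.48 (SE 1.09, adjusted p = 0.730).

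The median over all precursors in that comparison was -1.38, and -0.68 with library totals, so each of the 6 genes lay above it. Each organ is 1 library, and the mir-142 call was lost without thymus (3.73, edgeR adjusted p = 0.468), when 1 precursor was called in all. Without the library labelled pancreas mir-142 had 4.79 (adjusted p = 0.018) and mir-155 had 3.21 (adjusted p = 0.058). DESeq2 called 4 of the 6 higher, namely mir-142, mir-150, mir-223 and mir-155, where it called 16.1% of all precursors higher.

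**Figure D4:**
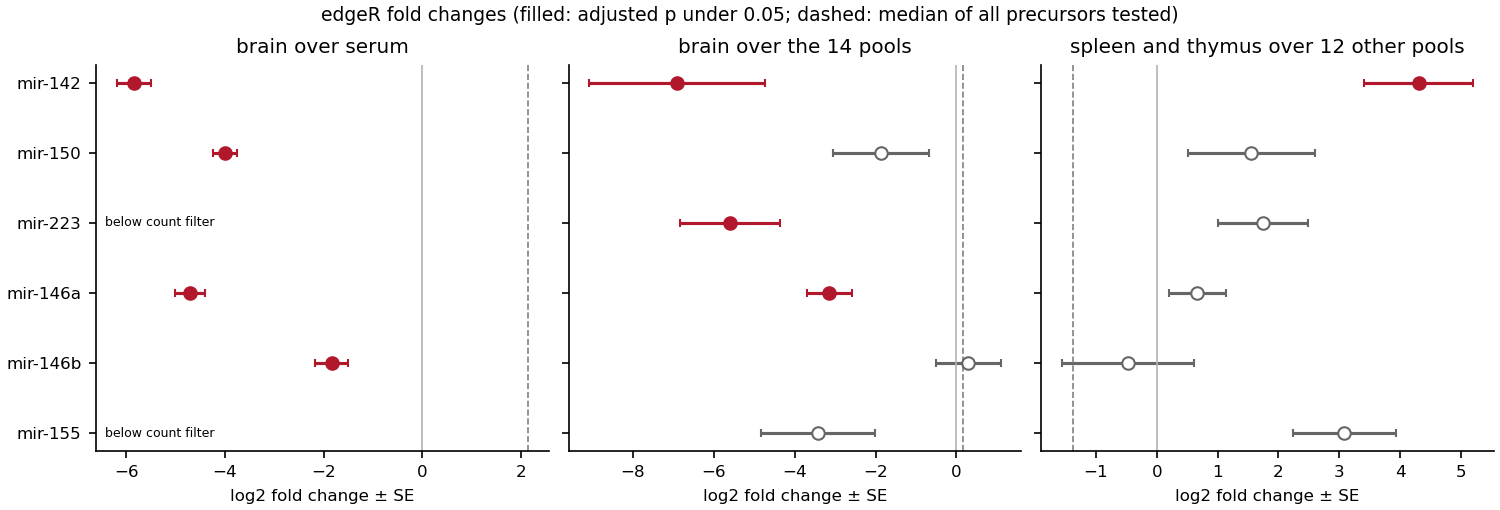
Log2 fold change (± SE) of the 6 precursors in 3 edgeR comparisons, filled where the adjusted p was under 0.05; the dashed line is the median of all precursors tested. All 4 genes tested against serum are filled, 3 of 6 against the pools (mir-142, mir-223 and mir-146a), and mir-142 alone for spleen and thymus at 4.31.

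Other miRNAs associated with leukocytes or inflammation were read beside them, from a list of 7. With spleen and thymus as 1 group mir-181b-1 and mir-181b-2 were higher (3.43 and 3.38, edgeR adjusted p = 0.021 for each), and the other 5 of the list did not pass. Only thymus was high, at 30382 and 30128 RPM. Spleen had 2076 and 2024 RPM, below lung (3661 and 3770 RPM), fat, skin and muscle. mir-181a and mir-181b, known for their role in T cell development, gave the list its highest sum in thymus, 318365 RPM, but brain was also high at 219171 RPM. Against serum, 6 of the 7 were tested in brain, and 4 of these, the mir-181 genes, were higher in brain while mir-342 was lower (-1.55, adjusted p = 0.0099). The mir-181 genes thus moved opposite to mir-142, mir-150, mir-146a and mir-146b in that comparison. In brain the 2 mir-181a copies had 97908 and 97685 RPM and the 2 mir-181b copies 10664 and 10886 RPM. Their counts may be shared between copies, so calls for 2 copies may not be independent. Against the pools, mir-21 (-4.84, edgeR adjusted p = 0.0023) and mir-147 (-5.71, adjusted p = 0.033) were lower in brain. For mir-147 the hemispheres had 2, 1 and 0 reads. Its level in the pools ran from 0 RPM in liver to 125 RPM in large intestine, and muscle had 2 reads. Of the red blood cell list, mir-451 was higher in spleen and thymus (5.09, adjusted p = 0.033), with 6026 RPM in spleen and 15.2 RPM in thymus.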

How the data were processed

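Small RNA libraries (TruSeq) were run by the authors on a MiSeq. After quality trimming at phred 20, alignment was to Rn5 (Bowtie, Partek). Tool versions are not given in the sources used here. The values the authors deposited are estimated counts (expected counts) per feature, not normalized, for RefSeq, miRBase 21 precursors and miRBase 21 mature arms. The 6 genes held the same values in the RefSeq and precursor lists (120 of 120).

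Levels were RPM within an annotation. Wilson and exact intervals are at 95%. Counts were rounded and tested with edgeR 4.0.16 (R 4.3.3), TMM scaling, a filter of at least 10 counts in at least 3 libraries and a threshold of 0.05. DESeq2 1.42.0 and other scalings, filters, lists and left-out libraries were alternatives. The genes and lists were chosen with earlier results of these data known. The genes named beside them were the 3 precursors with the highest r for each gene, and the listed miRNAs. Shares of precursor reads in the mature list were added after the values were seen, and their intervals treat mature reads as part of the precursor reads. The large intestine total is approximate, since its largest values were deposited with 3 digits. Nothing states that replicate numbers mark animals. On simulated counts with 60 precursors changed 8-fold, 74.2% were recovered for brain against serum (235 tested), 67.8% for mature arms (212), 46.0% for brain against the pools (295) and 24.6% for spleen and thymus (236). RefSeq names came from GRCr8. Python 3.11.15 with SciPy 1.17.1 and Matplotlib 3.10.9 was used.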

Additional observations from a re-analysis of the deposited data

How the results depend on the processing

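Serum depth limited the brain and serum comparison, and the single library per pool limited the others. Of 352 gene values under alternatives, 6 changed direction, all of them mir-146b, which never passed in those comparisons. Against the pools mir-146b was -0.35 with DESeq2 and with its size factors in edgeR, -0.011 without the filter, and between -0.065 (without hemisphere 3) and 0.55 with 1 library left out. In spleen and thymus it was 0.080 with both DESeq2 settings. The cause was not tested. In brain against serum, the 4 precursors were lower under each of the 13 alternatives.

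Counts of calls moved more. With at least 10 counts in every library, fewer features were tested, and 26 precursors were higher and 20 lower in brain than in serum (arms: 14 and 12), 11 higher and 21 lower than in the pools, and 11 higher in spleen and thymus. Against the pools DESeq2 called 119 lower, and library totals gave 123 higher and 24 lower. In spleen and thymus DESeq2 called 38 higher and 14 lower, edgeR with its size factors 28 higher, and edgeR without both the library labelled pancreas and liver (chosen after seeing the data) 14 higher. Leaving out 1 library at a time gave 29 to 102 higher and 25 to 43 lower for brain against serum, 19 to 101 and 17 to 29 for arms, 24 to 84 and 14 to 64 against the pools, and 1 to 14 and 0 to 1 in spleen and thymus. The lowest counts came without a hemisphere or, in the last comparison, without thymus, and the highest, 14, without fat or small intestine. Also there, leaving out heart, large intestine, liver, lung, spleen, testes or the library labelled pancreas gave 10 to 13. mir-155 passed against the pools without heart, lung, muscle or testes (adjusted p 0.040 to 0.049), and with DESeq2 or its size factors. With at least 10 counts everywhere, miR-146b-5p was lost (-0.74, adjusted p = 0.058). With TMM-scaled RPM, spleen or thymus was highest for 3 of the 6 genes in place of 5.

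The replicate number as a block left the calls of the genes in place (mir-142 -5.95, mir-150 -4.01, mir-146a -4.72, mir-146b -1.94; miR-146a-5p -5.08, miR-146b-5p -1.81, miR-150-5p -3.56), with 97 precursors higher and 44 lower. Whether the numbers mark the same animals is not known. Same-numbered libraries correlated at 0.103, -0.107 and -0.080 over 75 precursors, and not every library correlated best with its own number. These values cannot decide it, because serum counts as low as 3 reads entered and brain and serum of 1 animal need not vary together.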
